A study of Rattus norvegicus with 16 samples.

Results

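Cytochrome P450 (Cyp) genes were followed in the kidneys of healthy rats and of rats with diabetic nephropathy (DN), with and without sinomenine (SIN), an alkaloid from a Chinese herbal medicine. The members were the rows of the expression table whose symbol is Cyp, a number, a letter and a number, without Cyp2c23, Cyp24a1, Cyp27b1 and the Cyp4a genes. This gave 61 genes of 35849. By their best known substrates, 26 of the 61 act on foreign compounds, 16 on fatty acids and eicosanoids, 11 on bile acids, sterols and steroid hormones, and 4 on retinoids and vitamin D, while 4 have no settled substrate. The set is therefore wider than xenobiotic metabolism.

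RNA was sequenced from the kidneys of 16 male Sprague Dawley rats, 4 in each of 4 groups, aged 6 to 8 weeks at the start. The normal group had a citrate buffer injection and a normal diet. The DN group had 1 injection of streptozotocin at 45 mg/kg, which kills insulin-producing beta cells, together with a high-glucose and high-fat diet. The SIN (20 mg/kg) group had the same injection and diet plus SIN at that dose each day by gavage for 8 weeks, where the DN group had vehicle, and the SIN (40 mg/kg) group differed from it in dose. Streptozotocin rats were kept only if blood glucose passed 16.7 mmol/L after 1 week. The 3 diabetic groups thus share the toxin, the diet and this selection, whose effects cannot be told apart against the normal group.

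Cytochromes P450 are heme enzymes that put oxygen into small molecules, and those of the endoplasmic reticulum take their electrons from the reductase encoded by Por. The drug-metabolising families act on drugs and toxins and also on some steroids and fatty acids, and the liver holds most of them. In the kidney they are found chiefly in the proximal tubule, beside enzymes that hydroxylate arachidonic acid and other fatty acids. Several are switched on through nuclear receptors or, for Cyp1a1, through the aryl hydrocarbon receptor.

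Libraries held 19616284 to 25216979 estimated counts. Levels are given as CPM (counts per 1000000 counts of the library, scaled over the 16 rats), and as CPM per kb of the deposited gene length wherever genes are compared with each other. Summed proximal tubule markers, 7 genes such as Slc34a1 and Lrp2, stood at 9465 to 12701 CPM in the normal group, 6776 to 10635 in the DN group, 7725 to 9920 in the SIN (20 mg/kg) group and 8109 to 12044 in the SIN (40 mg/kg) group. Of 32 markers tested in 11 cell type lists, 2 rose and 4 fell in the DN group over the normal group (edgeR adjusted p under 0.05). Slc7a13 of the proximal tubule fell from 1850 to 2207 CPM in the normal rats to 593 to 839 CPM in the DN rats (log2 fold change -1.51, SE 0.13, edgeR adjusted p = 0.00113), and it stood at 435 to 981 CPM in the SIN rats, while the other 6 proximal tubule markers were not called. Umod of the thick limb (log2 fold change -0.77), Atp6v1b1 of the collecting duct and Ptprc of leukocytes also fell, and Cidec of adipocytes rose. Among the 5 hepatocyte markers, Fgb rose from 0.263 to 1.06 CPM to 4.91 to 13.0 CPM (log2 fold change 3.42, SE 0.46, edgeR adjusted p = 0.00421), Serpina1 was at 5.597 CPM or less and was called higher in SIN (20 mg/kg) over normal, and Tf was at 73.9 to 244 CPM, while Alb and Apoa1 reached at most 2.06 and 0.141 CPM in any rat. The summed level of that list was 98.8 to 154 CPM in the normal rats and 136 to 202 CPM in the DN rats. Of the 5 adrenal cortex markers, Akr1b7 stood at 0.532 to 139 CPM and Hsd3b2 at 2.03 CPM or less, and Nr5a1 reached at most 0.0469 CPM. The part of these markers in the P450 results was not tested. Replicate 3 of the DN group stood apart in smooth muscle, with a summed muscle marker level of 271 CPM where the next rat had 71.8. Its part in the results below was not tested, beyond leaving it out.

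A few genes made up nearly all RNA of the members in these kidneys. The P450 genes left out of the set, such as Cyp2c23 and the Cyp4a genes, are not in this sum. Cyp2e1, which oxidises ethanol and ketone bodies and activates small toxins, averaged 679 CPM per kb over the 16 rats, 46.4% of the sum over the members. Cyp2d2, of the subfamily that oxidises many basic drugs, followed with 248 CPM per kb (17.0%). Next came Cyp4f1, a hydroxylase of fatty acids and leukotrienes, with 165 CPM per kb (11.3%). Cyp2d3, Cyp2d5 and Cyp2d4 had 101, 89.6 and 52.0 CPM per kb, which brought the first 6 genes to 91.1% of the sum. Cyp4f6, Cyp1a1, Cyp20a1 and Cyp4b1 completed the first 10 with 19.1, 18.4, 12.7 and 10.6 CPM per kb. The place of Cyp1a1 rested on 1 rat, replicate 2 of the SIN (20 mg/kg) group. Without that rat, Cyp20a1 and Cyp4b1 took places 8 and 9, and Cyp2j4, an arachidonic acid epoxygenase, place 10 with 9.37 CPM per kb. These places are means over all 16 rats, 12 of them diabetic, and some did not hold in the normal group. There Cyp2e1 averaged 365 CPM per kb, against 717 to 889 in the diabetic groups, and Cyp4f1 and Cyp2d2 stood level at 125 ± 26.1 and 124 ± 56.9 CPM per kb (SD, n = 4). The order of Cyp2d3 and Cyp2d5 also changed between groups. Per length, Cyp2d3 was 1.504 to 2.80 times Cyp2d5 in the normal rats, 1.06 to 1.25 times in the DN rats, 0.873 to 0.997 times with SIN (20 mg/kg) and 0.906 to 0.973 times with SIN (40 mg/kg). Cyp2d3 was thus the higher of the pair in 8 of 8 normal and DN rats and in 0 of 8 SIN rats, a pattern singled out after its values were seen and not tested, in genes whose reads may have been split.

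Most of the foreign-compound members had too few counts to test. The set is not the liver's whole drug-metabolising repertoire. Genes such as Cyp2d1, Cyp2a2 and Cyp2c6v1, which lie beside members on the chromosome, are not in it, and their levels were not read. There were 12 members with a count of 0 in all 16 rats, 9 of them foreign-compound genes, among them Cyp1a2, the partner of Cyp1a1. Also at 0 were Cyp7a1, the rate-limiting enzyme of bile acid synthesis from cholesterol, and Cyp2c12, which is female-specific in rat liver. A count of 0 allows up to 3 counts, which is 0.119 to 0.158 CPM per rat and covers counting error only. A further 8 members had at most 3 counts in every rat. Cyp3a9, of the subfamily that handles the largest share of drugs in liver, had at most 2 counts. Cyp3a18 and Cyp3a62, the other members of that subfamily, had at most 4 and 3. In all, 33 members had enough counts to test in at least 1 comparison, 32 of them in all 6 comparisons, and the other 28 were not tested. The tested members were 10 of 26 foreign-compound genes, 10 of 16 fatty acid genes, 7 of 11 bile acid and steroid genes, 3 of 4 retinoid and vitamin D genes and 3 of 4 without a settled substrate.

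Gene neighbours differed widely. Cyp2c11, the male-specific steroid hydroxylase of rat liver, and its neighbour Cyp2c24 on chromosome 1 were both tested, while Cyp2c7, Cyp2c12 and Cyp2c13 stood at 0 and Cyp2c22 had 1 count in 1 rat. In the Cyp2a, Cyp2b and Cyp2g cluster no member exceeded 10 counts, whereas Cyp2s1 at one end and Cyp2f4 and Cyp2t1 at the other were tested. On chromosome 8, Cyp1a1 was tested and the adjacent Cyp1a2 was at 0.

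**Figure D1:**
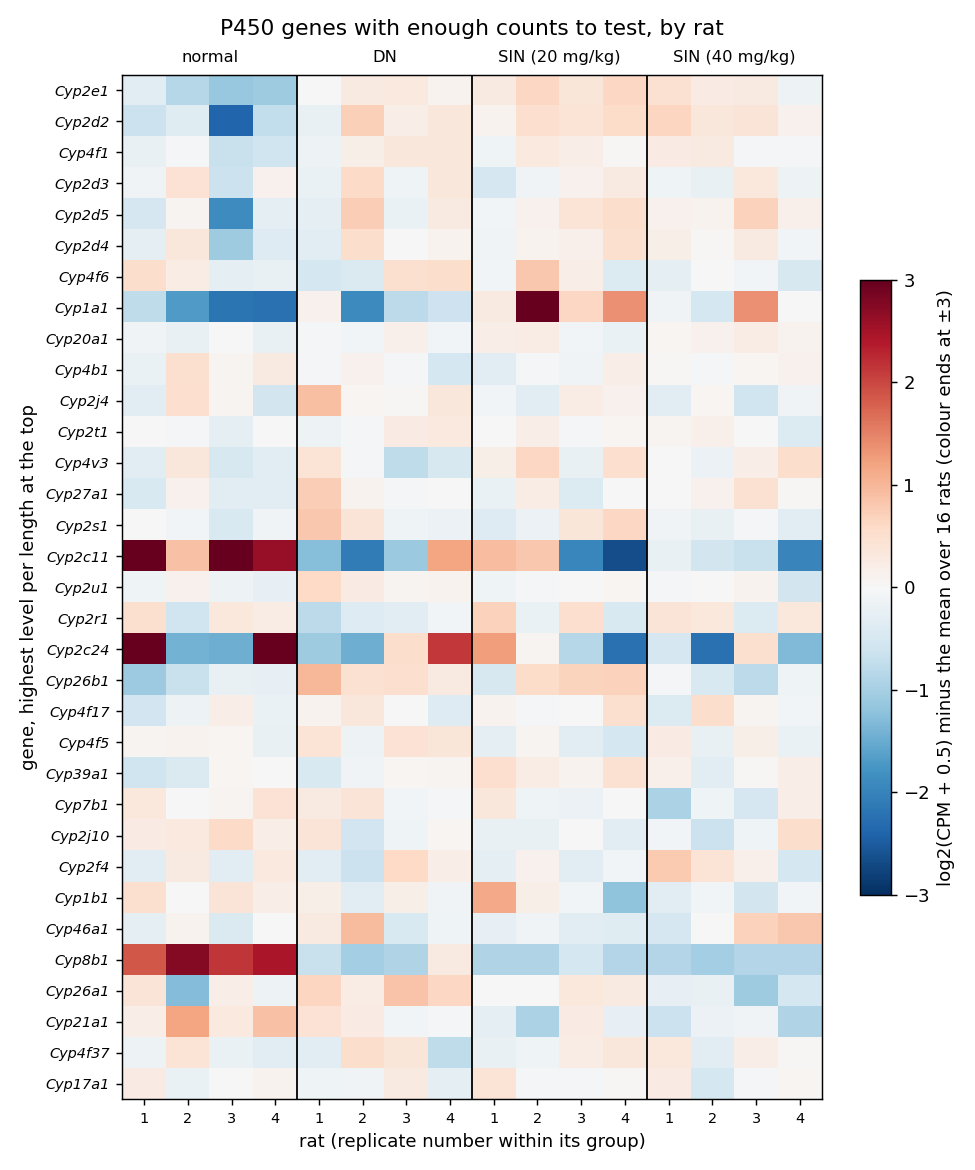
Level of each of the 33 tested P450 genes (rows, highest CPM per kb at the top) in each of the 16 rats (columns, by group), as log2(CPM + 0.5) minus the gene's mean over the rats, with the colour ending at ±3. Cyp2e1 is lower in the 4 normal rats, Cyp8b1 is higher there, and Cyp2c11 is higher in normal replicates 1, 3 and 4. Cyp1a1 in replicate 2 of the SIN (20 mg/kg) group is among the squares past the upper colour end.

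The comparison of the DN group with the normal group asks which P450 genes change with the disease model. Cyp2e1, Cyp26b1 and Cyp4f1 rose, and Cyp8b1 and Cyp2c11 fell. These were 5 of the 33 tested members (15.2%), set against 19.5% of all 15775 genes tested, by edgeR's quasi-likelihood test at a Benjamini-Hochberg adjusted p under 0.05. The 3 that rose were 9.09% of the tested members, against 8.74% of all genes, and the 2 that fell 6.06%, against 10.8%. At an unadjusted p under 0.05 there were 8 members (24.2%, against 36.9%). With an absolute log2 fold change of 1 or more also required, 3 members passed, Cyp8b1, Cyp26b1 and Cyp2c11 (9.09%, against 3.8% of all genes). The median log2 fold change over the tested members was 0.19 against 0.0016 over all genes, and 23 of 33 lay above 0 (69.7%, against 50.1%). The groups did not overlap for 4 members (12.1%, against 24.3%). In whole kidney RNA, fewer cells of a type and less RNA per cell cannot be told apart.

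Among the foreign-compound genes, 1 of 10 tested rose and 1 fell. Cyp2e1 stood at 834, 572, 475 and 493 CPM in the normal rats and at 1035, 1243, 1279 and 1107 CPM in the DN rats. Every DN rat was above every normal rat, a rise of 1.97-fold (log2 fold change 0.98, SE 0.18, edgeR adjusted p = 0.0107). With any single rat left out the log2 fold change was 0.89 to 1.19 and the adjusted p at most 0.0418.

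Cyp2c11 went the other way, from 31.9, 7.02, 34.7 and 24.7 CPM in the normal rats to 1.19, 0.455, 1.39 and 8.71 CPM in the DN rats. The groups overlapped, because the lowest normal rat was below the highest DN rat. The log2 fold change was -3.06 (SE 0.81, edgeR adjusted p = 0.0297). The call was lost, at adjusted p of 0.0616 to 0.0786, on leaving out normal replicate 1, 3 or 4 or DN replicate 1, 2 or 3, while the log2 fold change stayed between -4.58 and -2.70. Its neighbour Cyp2c24, a close paralogue with which reads may be shared, varied too widely to call. That gene had 23.2, 0.387, 0.351 and 64.6 CPM in the normal rats against 0.62, 0.354, 2.91 and 9.81 CPM in the DN rats (log2 fold change -2.68, SE 1.44, edgeR adjusted p = 0.204).

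The Cyp2d genes, close paralogues between which reads may have been split, shared the rat with the highest level in the normal, DN and SIN (20 mg/kg) groups. With SIN (40 mg/kg) Cyp2d2 was highest in replicate 1 and the other 3 genes in replicate 3. Their summed level was 547, 749, 246 and 568 CPM in the normal rats and 636, 1191, 771 and 925 CPM in the DN rats. Normal replicate 3 was the lowest of the 16 rats for each of the 4 genes. Cyp2d2 stood at 239.9, 294, 71.9 and 226 CPM in the normal group and at 325, 617, 430.2 and 478 CPM in the DN group. The 2 groups did not overlap, but the gene missed the threshold, with a log2 fold change of 1.16 (SE 0.37, edgeR adjusted p = 0.0515). DESeq2 gave an adjusted p of 0.0358 for it. Cyp2d5, Cyp2d4 and Cyp2d3 had log2 fold changes of 0.67 (SE 0.37), 0.37 and 0.19, none of them called.

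**Figure D2:**
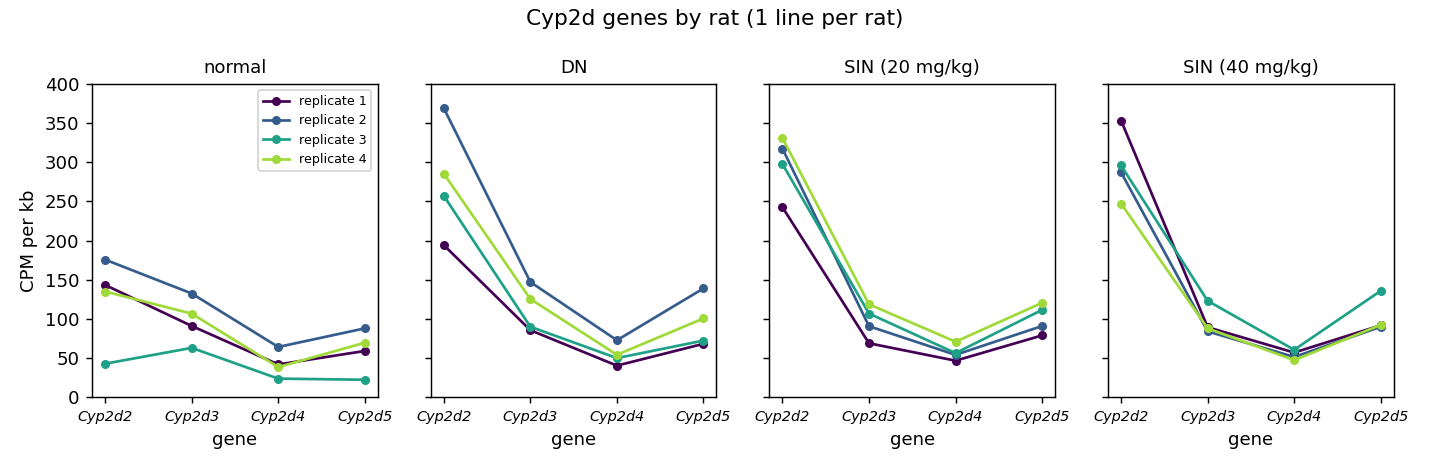
Level in CPM per kb (vertical axis) of Cyp2d2, Cyp2d3, Cyp2d4 and Cyp2d5 in each rat, 1 line per rat and 1 panel per group of 4. The lowest line in the normal panel is replicate 3, and Cyp2d2 is the highest of the 4 genes in each of the 12 diabetic rats.

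Of the bile acid and steroid genes, 1 of 7 tested fell and 0 rose. Cyp8b1, the sterol 12-alpha-hydroxylase that directs bile acid synthesis towards cholic acid, stood at 3.21, 6.34, 3.95 and 5.03 CPM in the normal rats. It was at 0.133, 0, 0.0447 and 0.714 CPM in the DN rats, all below every normal rat. As counts these were 403 over the normal group and 19 over the DN group, a ratio of 20.8 with a 95% exact interval of 13.1 to 34.9 that covers counting error only. The log2 fold change was -4.34 (SE 0.75, edgeR adjusted p = 0.00846), and it stayed between -6.11 and -3.95 with an adjusted p of at most 0.0309 when any single rat was left out. Cyp8b1 had enough counts to test only because of the normal rats, so its entry to the test and its direction rest on the same values. Of the hepatocyte markers in the same normal rats, Alb was at 0 to 0.559 CPM and Tf at 97.3 to 153 CPM, and Fgb rose in the DN rats where Cyp8b1 fell. Cyp21a1, the steroid 21-hydroxylase of the adrenal cortex, had 0.885, 2.23, 0.966 and 1.69 CPM in the normal group and 1.11, 0.91, 0.626 and 0.667 CPM in the DN group (log2 fold change -0.79, SE 0.38, edgeR adjusted p = 0.163). The adrenal cortex marker Hsd3b2 had 0.326, 2.03, 0.878 and 1.47 CPM in the normal rats, highest in the same 2 rats as Cyp21a1, and 0, 0.91, 0 and 0.333 CPM in the DN rats (log2 fold change -1.93, SE 0.99, edgeR adjusted p = 0.185). The match did not hold in the DN group, where replicate 1, the highest for Cyp21a1, had Hsd3b2 at 0. Akr1b7, the other adrenal cortex marker tested, went the other way (log2 fold change 0.49, SE 0.41, edgeR adjusted p = 0.404). Star, Mc2r and Nr5a1 were too low to test. The part of these markers in the Cyp21a1 values was not tested. Cyp27a1, the sterol 27-hydroxylase of mitochondria, had a log2 fold change of 0.49 (SE 0.21) and an adjusted p of 0.117.

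For the retinoid and vitamin D genes, 1 of 3 tested rose. Cyp26b1, which breaks down retinoic acid, stood at 3.82, 5.28, 7.29 and 7.16 CPM in the normal rats and at 17.6, 11.9, 12.5 and 10.5 CPM in the DN rats. The groups did not overlap, and the rise was 2.24-fold (log2 fold change 1.16, SE 0.24, edgeR adjusted p = 0.0147). Cyp26a1, a second retinoic acid hydroxylase, was at 1.26, 0.0484, 1.05 and 0.712 CPM in the normal group and at 1.59, 1.06, 1.92 and 1.57 CPM in the DN group. Normal replicate 1 lay within the DN range, and the log2 fold change of 1.00 (SE 0.60) had an adjusted p of 0.255.

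Fatty acid genes gave 1 rise in 10 tested. Cyp4f1 had 307, 347, 225 and 236 CPM in the normal rats and 325, 405, 455 and 457 CPM in the DN rats, so that the lowest DN rat lay below the highest normal rat. The rise was 1.48-fold (log2 fold change 0.56, SE 0.17, edgeR adjusted p = 0.0429). Leaving out normal replicate 1, 3 or 4 or DN replicate 2, 3 or 4 ended the call, at adjusted p of 0.0664 to 0.121. Its neighbour Cyp4f6 had 48.1, 38.4, 27.0 and 28.2 CPM in the normal group and 22.8, 24.3, 46.4 and 48.0 CPM in the DN group, which overlapped widely. Cyp4b1, a fatty acid and xenobiotic hydroxylase better known from lung, had a mean of 23.6 ± 4.76 CPM in the normal group and 19.3 ± 3.51 CPM in the DN group (SD, n = 4). Cyp20a1, an orphan P450, held 21.2 to 24.7 CPM in the normal rats and 23.5 to 28.0 CPM in the DN rats. Neither Cyp4b1 nor Cyp20a1 was called.

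**Figure D3:**
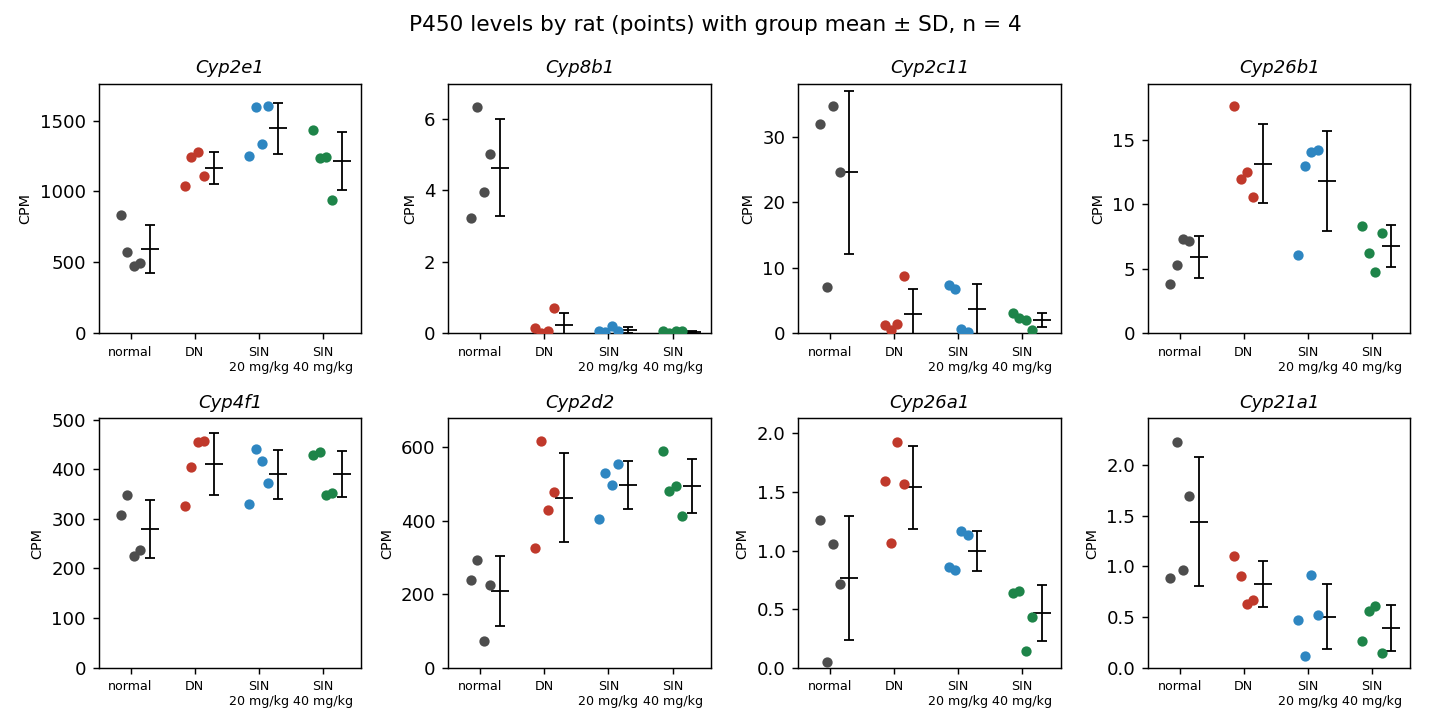
CPM in each rat (points) of 8 P450 genes in the 4 groups, with the group mean ± SD (n = 4) at the right of the points and an axis that starts at 0, where SD bars end. Cyp2e1 lies between 475 and 834 CPM in the normal rats and above 900 in all others, and Cyp8b1 lies at 3.21 CPM or more in the normal rats and at 0.714 or less elsewhere.

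Promoters of 4 of the 5 members called in the DN group over the normal group were read from the RefSeq table of the GRCr8 build. This is another assembly than the Rnor_6.0 build of the counts. That table held 52 of the 61 members. The 250 bases before each start are given 5′ to 3′ on the strand of the gene, and capitals mark a match to GCGTG, the core bound by the aryl hydrocarbon receptor, or to AGGTCA, a nuclear receptor half-site, on either strand.
Cyp2e1, chr1:205269717-205269966, plus strand: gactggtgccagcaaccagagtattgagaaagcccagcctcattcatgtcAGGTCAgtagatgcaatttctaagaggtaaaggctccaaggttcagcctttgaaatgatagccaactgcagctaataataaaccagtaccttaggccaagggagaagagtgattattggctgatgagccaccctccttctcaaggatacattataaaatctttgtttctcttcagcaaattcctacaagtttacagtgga
Cyp2c11, chr1:246174966-246175215, plus strand: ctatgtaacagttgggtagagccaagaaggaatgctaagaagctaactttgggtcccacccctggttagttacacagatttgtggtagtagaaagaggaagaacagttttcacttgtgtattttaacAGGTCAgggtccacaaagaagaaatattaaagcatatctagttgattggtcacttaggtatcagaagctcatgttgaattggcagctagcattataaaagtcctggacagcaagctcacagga
Cyp8b1, chr8:130457593-130457842, minus strand: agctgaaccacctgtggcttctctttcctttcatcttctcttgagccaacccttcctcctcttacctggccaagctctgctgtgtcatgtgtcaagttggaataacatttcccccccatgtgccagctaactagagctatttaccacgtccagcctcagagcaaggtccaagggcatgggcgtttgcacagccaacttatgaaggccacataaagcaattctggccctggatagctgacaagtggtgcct
Cyp26b1, chr4:118616177-118616426, minus strand: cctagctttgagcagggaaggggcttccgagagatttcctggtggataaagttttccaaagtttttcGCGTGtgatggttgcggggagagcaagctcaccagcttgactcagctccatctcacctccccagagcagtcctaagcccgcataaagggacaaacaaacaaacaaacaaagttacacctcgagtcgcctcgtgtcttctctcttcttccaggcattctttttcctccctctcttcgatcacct
In Cyp2e1 and Cyp2c11, which changed in opposite directions, AGGTCA began 200 and 123 bases before the start. Cyp26b1 held GCGTG 183 bases before the start, and the window of Cyp8b1 held neither. AGGTCA was in 30.8% of the 52 members' windows and in 14.1% of all 33469 windows of that length, and GCGTG in 32.7% and 25.9%. TTATGTAA, the site of the clock output factors Dbp, Tef and Hlf, was in 2 of the 52 members' windows (3.85%), in 0 of the 28 windows of tested members, and in 0.828% of all. A match of letters is a description and not a binding site.

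The comparisons of each SIN group with the DN group ask what the drug changed in diabetic kidneys, and they share the 4 DN rats. No member passed in either comparison by edgeR's quasi-likelihood test, 0 of 32 tested for SIN (20 mg/kg) (background 0% of 15724 genes) and 0 of 32 for SIN (40 mg/kg) (background 0% of 15530 genes). At an unadjusted p under 0.05 there were 4 members for SIN (20 mg/kg) (12.5%, against 15.4% of all genes) and 5 for SIN (40 mg/kg) (15.6%, against 17.1%). DESeq2 called 0 members and 1 member, beside 1.41% and 2.81% of all genes. The median log2 fold change over members was -0.0082 at the lower dose and -0.038 at the higher dose, against -0.0074 and 0.0067 over all genes.

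The genes that differed between the DN and normal groups are set side by side here, as each dose's own values. Cyp2e1 had 1248, 1597, 1335 and 1601 CPM in the SIN (20 mg/kg) rats and 1435, 1236, 1244 and 937 CPM in the SIN (40 mg/kg) rats. Both ranges overlapped that of the DN rats, and the log2 fold changes over DN were 0.30 (SE 0.13, edgeR adjusted p = 0.306) and 0.06 (SE 0.14, edgeR adjusted p = 0.861). Every rat of both SIN groups stayed above every normal rat. The value at the higher dose turned to -0.015 without DN replicate 1 and to -0.032 without SIN (40 mg/kg) replicate 1.

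Cyp8b1 was too low to test between diabetic groups. It had 0.043, 0.0398, 0.203 and 0.047 CPM with SIN (20 mg/kg), 7 counts in all, and 0.0528, 0, 0.0467 and 0.0484 CPM with SIN (40 mg/kg), 3 counts in all. Cyp2c11 was at 7.31, 6.68, 0.557 and 0.141 CPM and at 3.01, 2.30, 2.05 and 0.532 CPM in the 2 dose groups, each within the range of the DN rats but for the lowest at the lower dose. Cyp4f1 was at 329.5, 441, 416 and 371 CPM and at 428, 434, 348 and 353 CPM, all within the DN range.

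Cyp26b1 and Cyp26a1, the retinoic acid hydroxylases, were the members with the smallest p at the higher dose, though neither passed. Cyp26b1 had 8.29, 6.19, 4.76 and 7.79 CPM in the SIN (40 mg/kg) rats, all below the DN rats and 2 of them within the normal range. The log2 fold change over DN was -0.96 (SE 0.22, edgeR adjusted p = 0.175), and DESeq2 gave -0.97 with an adjusted p of 0.00564. With SIN (20 mg/kg) the gene was at 6.06, 13.0, 14.0 and 14.2 CPM, 3 rats within the DN range and replicate 1 below it. Cyp26a1 had 0.634, 0.656, 0.140 and 0.436 CPM at 40 mg/kg, and no SIN rat reached the lowest DN rat (log2 fold change -1.72, SE 0.44, edgeR adjusted p = 0.187). At 20 mg/kg it was at 0.860, 0.835, 1.16 and 1.13 CPM, which overlapped the DN rats. Their counts were low, 38 over the SIN (40 mg/kg) group and 133 over the DN group for Cyp26a1.

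Cyp21a1 was the third of the 3 members whose SIN (40 mg/kg) rats all lay below the DN rats, with 0.264, 0.563, 0.607 and 0.145 CPM (log2 fold change -1.05, SE 0.47, edgeR adjusted p = 0.29). Those 3 were 9.38% of the tested members, against 10.4% of all genes whose groups did not overlap in this comparison. The share that lay lower was 3.99% over all genes. At 20 mg/kg, 3 members did not overlap with DN (9.38%, against 8.99%), Cyp1a1 and Cyp39a1 above and Cyp2u1 below. Cyp39a1, an oxysterol 7-alpha-hydroxylase, stood at 6.84, 5.49, 5.01 and 6.54 CPM there against 3.27, 4.30, 4.88 and 4.95 CPM in DN rats (log2 fold change 0.45, SE 0.20, edgeR adjusted p = 0.318). Among others with an unadjusted p under 0.05, Cyp2j4 and Cyp2r1, the vitamin D 25-hydroxylase, had log2 fold changes of -0.62 and 0.62 at 40 mg/kg, and Cyp4f5 one of -0.60 at 20 mg/kg.

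**Figure D4:**
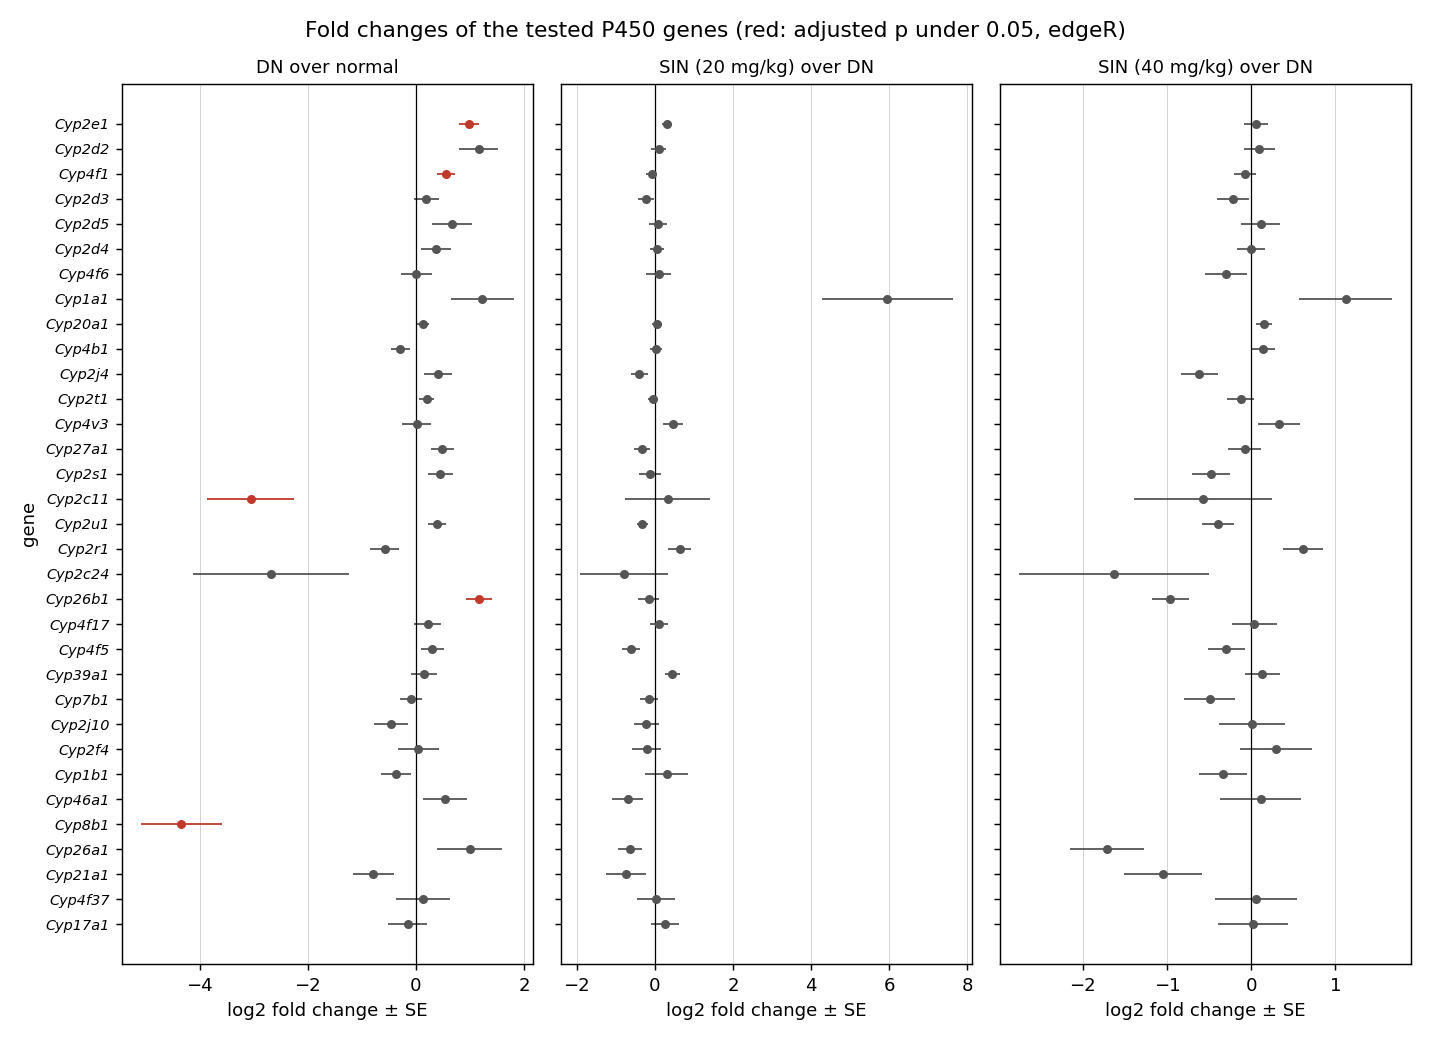
Log2 fold change ± SE (horizontal axis, 1 scale per panel) of the tested P450 genes for DN over normal and for each SIN dose over DN; red marks an edgeR adjusted p under 0.05. The 5 red points all lie in the first panel, and Cyp8b1 has no point in the others because it was not tested there.

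Cyp1a1, the hydrocarbon-inducible enzyme of the aryl hydrocarbon receptor, was far higher in 1 rat than in the other 15. It stood at 2.61, 1.11, 0.658 and 0.623 CPM in the normal rats and at 5.31, 0.91, 2.55 and 2.90 CPM in the DN rats. The SIN (20 mg/kg) rats had 5.89, 707, 7.60 and 13.1 CPM, and the SIN (40 mg/kg) rats 4.44, 3.19, 13.2 and 4.69 CPM. All 4 rats of the lower dose were above all DN rats, and all 8 SIN rats above all normal rats.

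The 707 CPM of replicate 2 came from 17782 counts and was 53.8 times the next highest rat. With 0.5 CPM added to every level, no other gene in that rat was over 4 times its level in every other rat. This covered the 15724 genes tested for SIN (20 mg/kg) over DN. The log2 fold change of SIN (20 mg/kg) over DN was 5.95 (SE 1.68, edgeR adjusted p = 0.27), and without that rat 1.59 (edgeR adjusted p = 0.246), the other 3 rats averaging 8.87 ± 3.78 CPM (SD, n = 3). DESeq2 gave no adjusted p for it. At 40 mg/kg the log2 fold change over DN was 1.12 (SE 0.55, edgeR adjusted p = 0.327).

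Other genes of the receptor axis were not set apart to that degree in the same rat. Cyp1b1, the second P450 target of the receptor, had 1.79 CPM there, within the 0.376 to 3.91 CPM of the other SIN (20 mg/kg) rats. Nqo1, a quinone reductase, was the highest of the 16 rats at 29.2 CPM, where the next had 23.6. Tiparp, a receptor-induced repressor, had 12.9 CPM and Ahr, the receptor itself, 7.72 CPM, the lowest of the 16. Ahrr, Aldh3a1 and Ugt1a6, of the same list, stood at 0.915, 0.636 and 589 CPM in that rat. For each it was the highest of its group but not of the 16 rats. Arnt, at 51.3 CPM, lay within the range of its group. Cyp1a2 was at 0.

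**Figure D5:**
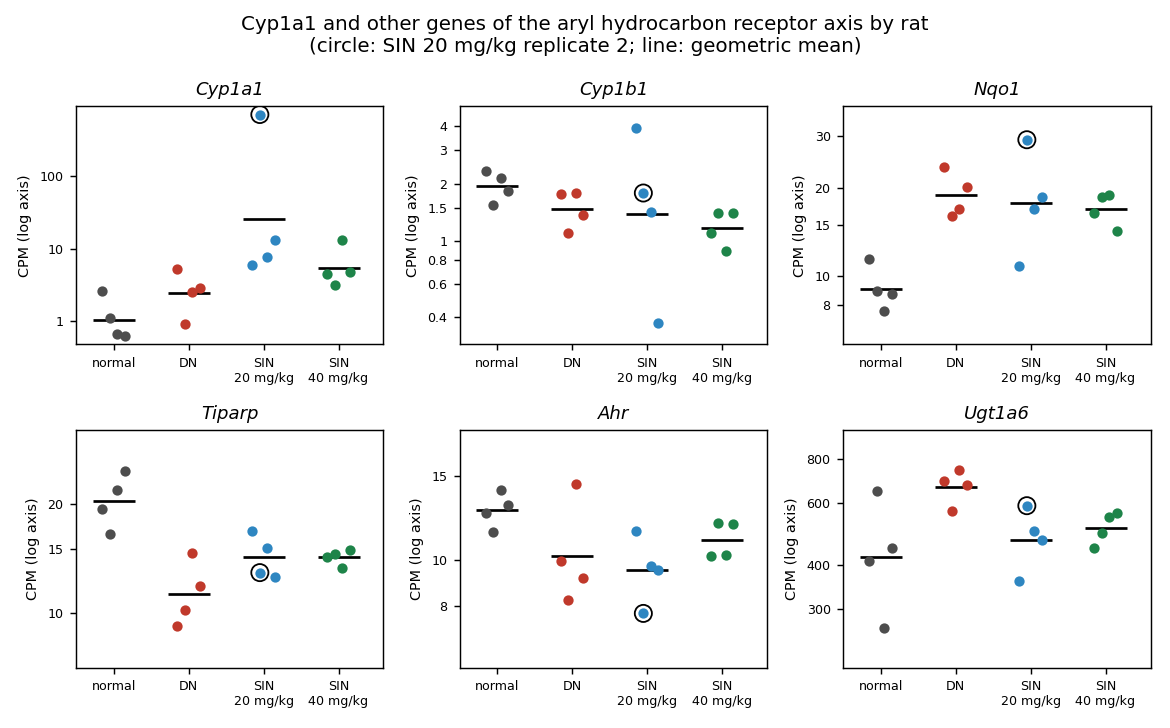
CPM on a log axis of Cyp1a1 and 5 other genes of the aryl hydrocarbon receptor axis in each rat (points), with the geometric mean of each group as a line; the circle marks replicate 2 of the SIN (20 mg/kg) group. That rat stands far above the rest for Cyp1a1 (707 CPM) and is highest for Nqo1 (29.2 CPM), but lies among or below the others for the remaining 4 genes.

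The doses were also compared with each other. No member passed, 0 of 32 tested (background 0.00639% of 15657 genes, which is 1 gene), DESeq2 called 0 members (0.109% of all genes), and 3 members had an unadjusted p under 0.05 (9.38%, against 4.98%). These were Cyp26a1, Cyp26b1 and Cyp1a1, all lower at 40 mg/kg, with log2 fold changes of -1.10 (SE 0.44), -0.81 (SE 0.27) and -4.85 (SE 1.56) and an edgeR adjusted p of 0.961 each. The value for Cyp1a1 was -0.48 without replicate 2 of the SIN (20 mg/kg) group. Cyp26a1 was the 1 member whose dose groups did not overlap (3.12%, against 3.31% of all genes).

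Against the normal group, the comparisons ask which differences remain in treated rats; they share the 4 normal rats with the DN comparison. With SIN (20 mg/kg) 3 of 33 tested members passed, Cyp8b1 falling and Cyp2e1 and Cyp1a1 rising (9.09%, against 6.36% of 15877 genes). All 3 changed by 1 or more on the log2 scale (background 2.48%). With SIN (40 mg/kg) 4 of 33 passed, Cyp8b1 and Cyp2c11 falling and Cyp2e1 and Cyp1a1 rising (12.1%, against 5.97% of 15735 genes), again all by 1 or more (background 2.47%). Cyp8b1 had log2 fold changes of -5.77 (SE 0.48) and -6.78 (SE 0.47), with edgeR adjusted p of 0.000286 and 0.000132. Here too it was tested only because of its counts in the normal rats. The ratio of normal to SIN counts was 58.9 (95% exact interval 28.3 to 147) at 20 mg/kg and 127 (43 to 616) at 40 mg/kg, for counting error only.

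Cyp2e1 was higher than normal by 1.28 (SE 0.19, edgeR adjusted p = 0.00435) and 1.03 (SE 0.20, edgeR adjusted p = 0.0155) on the log2 scale. The second call was lost, at an adjusted p of 0.0537, without normal replicate 4. Cyp2c11 was lower than normal by a log2 fold change of -3.64 at 40 mg/kg (SE 0.55, edgeR adjusted p = 0.0049), with no overlap between the groups. At 20 mg/kg it was -2.72 and not called (edgeR adjusted p = 0.0966).

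Cyp1a1 rose over normal by a log2 fold change of 7.20 at 20 mg/kg (SE 1.81, edgeR adjusted p = 0.044) and of 2.34 at 40 mg/kg (SE 0.57, edgeR adjusted p = 0.0396). Without replicate 2 of the SIN (20 mg/kg) group the first was 2.82 and still called (edgeR adjusted p = 0.0198), but it was lost on leaving out any 1 normal rat (adjusted p of 0.0914 to 0.128), and DESeq2 gave no adjusted p. The second was lost without normal replicate 2, 3 or 4 or SIN (40 mg/kg) replicate 2 or 3, at adjusted p of 0.0508 to 0.11.

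Members just short of the threshold were Cyp2d2 at both doses, with log2 fold changes of 1.25 and 1.25 (edgeR adjusted p = 0.0587 and 0.0594), and Cyp21a1 at 40 mg/kg with -1.84 (SE 0.49, edgeR adjusted p = 0.0568). Cyp2j10 had 1.25, 1.23, 1.52 and 1.13 CPM with SIN (20 mg/kg), all below the normal rats at 1.82 to 2.50 CPM, with a log2 fold change of -0.68 (SE 0.24, edgeR adjusted p = 0.141). In 10 of 33 members the SIN (40 mg/kg) rats did not overlap the normal rats (30.3%, against 14.3% of all genes), 6 of them higher (18.2%, against 7.17%). At 20 mg/kg there were 6 such members (18.2%, against 13.7%).

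Partners and regulators of the P450 enzymes were counted from 4 lists of 49 genes, of which 46 were in the table. In the DN group over the normal group 44 could be tested, 8 rose (18.2%, against 8.74% of all genes) and 5 fell (11.4%, against 10.8%) by edgeR's quasi-likelihood test. Por, the shared electron donor, had 154 to 253 CPM in the normal rats and 203 to 247 CPM in the DN rats and was not called (log2 fold change 0.14, SE 0.15). Of the other detoxifying enzymes, 1 of 21 rose (4.76%) and 3 fell (14.3%). Ephx1, the epoxide hydrolase that works on P450 products, rose by a log2 fold change of 0.95 (SE 0.18, edgeR adjusted p = 0.0114), while Fmo2, a flavin monooxygenase, fell by 0.88 on the log2 scale.

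In the receptor list outside P450, 1 of 6 tested rose (16.7%), Nqo1 (log2 fold change 1.07, SE 0.17), and 1 fell, Tiparp (-0.83, SE 0.18). The transcription factor list gave 3 rises of 8 (37.5%), Nr1i2, the pregnane X receptor (0.49), Tef (0.50) and Dbp (1.78, SE 0.27). Of the 9 electron donor and heme genes, 3 rose, Cyb5r3, Fdxr and Hmox1, and Cyb5b fell. The Hmox1 value rested on DN replicate 1, at 707 CPM where the other DN rats had 5.57 to 11.3, and its log2 fold change of 5.64 became 1.19 without that rat. None of the 44 genes tested for SIN (20 mg/kg) over DN and none of the 43 for SIN (40 mg/kg) over DN passed.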

How the data were processed

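Kidney RNA of 16 rats was enriched for poly(A) RNA and sequenced on an Illumina Novaseq instrument. Per the study's methods, the authors removed adapters and poor bases (SeqPrep, Sickle) before TopHat alignment against Rnor_6.0 with Ensembl annotation. The submitters' processing notes also name Bowtie, RSEM and edgeR without a role. The deposited table gives an expected count (an estimated read count, not normalised) per gene and library. Of its values above 0, 74.3% were whole, so reads shared between paralogues may have been split. The table also holds a gene length, group means, and 4 library columns that no sample record names, none of which were used except the length.

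Expected counts were rounded. Each of the 6 pairs of groups was tested on the whole table, on its own 8 rats, with edgeR 4.0.16 in R 4.3.3 (TMM scaling, filterByExpr, quasi-likelihood F test, two-sided, Benjamini-Hochberg over all genes tested), and a gene was called at an adjusted p under 0.05. The SE is the log2 fold change divided by the square root of F. CPM used TMM over the 16 rats. DESeq2 1.42.0, another normalisation, other filters, 1 fit of all rats, a block on replicate number and leaving out each rat were tried as alternatives. The code was tested on simulated data. Replicates are different rats, with 4 per group. No pair of replicates agreed within sampling noise.

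The members and lists were chosen with earlier results of these data known. Named by rule were the members called in any comparison, the 10 highest per length, Cyp1a1, Cyp1a2, Cyp1b1, Cyp2e1 and Cyp3a9. The rule also took, in each comparison, up to 5 with the largest change among those with an unadjusted p under 0.05 and no overlap. Not every value of these members is given. Others that are named were chosen after their values were seen. Substrate groups were assigned from general knowledge. Promoters came from RefSeq (GRCr8), which was otherwise used for gene order only.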

Additional observations from a re-analysis of the deposited data

Results flagged for a closer look

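Of 75 groups of 4 rats that were examined for a single rat far from the other 3, 10 had one. The rule's rate of about 1 in 20 holds for normally distributed values. It cannot be set against this number, because the values are CPM, some from few counts, of members named partly for their changes. Cyp1a1 stood at 707 CPM in replicate 2 of the SIN (20 mg/kg) group, with the others at 5.89 to 13.1, and at 13.2 CPM in replicate 3 of the SIN (40 mg/kg) group, with the others at 3.19 to 4.69. That same SIN (40 mg/kg) rat was apart from its group for Cyp2d3 (188 CPM, others 129 to 137) and Cyp2d5 (216 CPM, others 143 to 147). Cyp26b1 was at 6.06 CPM in replicate 1 of the SIN (20 mg/kg) group, below the 13.0 to 14.2 of the rest. Cyp2c11 was at 8.71 CPM in replicate 4 of the DN group, above the 0.455 to 1.39 of the rest. Cyp20a1 was at 28.0 CPM in DN replicate 3, the rat with high smooth muscle markers, against 23.5 to 23.8. The remaining 3 rest on few counts. Cyp8b1 was at 0.203 CPM in SIN (20 mg/kg) replicate 3, and at 0 in SIN (40 mg/kg) replicate 2. Cyp3a9 was at 0.0938 CPM in that last rat, with the other 3 at 0.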

How the results depend on the processing

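Cyp8b1 and Cyp2e1 kept their calls in DN over normal under every alternative that tested them. The number of members called in DN over normal was 5, and 3 with the replicate number as a block. The numbers name different rats and same-numbered rats correlated by -0.238 to 0.244 over 24 pairs, with 2 over 0.1 and 3 of 16 rats closest to their own number, so the block is no pairing. Under the block Cyp26b1 and Cyp4f1 had adjusted p of 0.0543 and 0.102. Leaving out single rats gave 3 to 7 called members, with 3 without normal replicate 1 or 4 or DN replicate 2 or 3, and 2 to 4 at an absolute log2 fold change of 1 or more. For SIN (40 mg/kg) over DN, DESeq2 called 1 member where edgeR called 0. Leave-one-out fits gave 0 to 0 for both SIN groups over DN and for the doses. For SIN (20 mg/kg) over normal the count was 3, 5 with DESeq2, 5 with all rats in 1 fit (5 also at a change of 1 or more), and 2 to 4 with a rat left out. For SIN (40 mg/kg) over normal it was 4, 7 with DESeq2 and 2 to 4 with a rat left out, 2 without normal replicate 4, and at a change of 1 or more also 2 without normal replicate 3. In 1 fit of all rats Cyp1a1 in SIN (40 mg/kg) over normal had an adjusted p of 0.36. Cyp2e1 in SIN (40 mg/kg) over DN was 0.06, and -0.032 to 0.16 with a rat left out. It turned negative without DN replicate 1 (-0.015) and without SIN (40 mg/kg) replicate 1 (-0.032). The cause of these changes was not tested. Depth limits the 28 members that were never tested, which had at most 24 counts in any rat, and no difference could be detected for them.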

Other observations

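The clock output factors Dbp, Tef and Hlf, which bind the promoters of several detoxifying genes, were followed among the regulators. Dbp and Tef rose in the DN group over the normal group and Hlf was not called. Dbp had 20.2, 26.5, 28.3 and 44.2 CPM in the normal rats and 72.6, 107, 143 and 85.2 CPM in the DN rats. Its level was 95.4, 207, 202 and 210.4 CPM with SIN (20 mg/kg) and 179.5, 223, 214 and 151 CPM with SIN (40 mg/kg), so all 12 diabetic rats were above all normal rats. Hlf had 30.4 to 37.5 CPM in normal and 29.1 to 39.7 CPM in DN rats, but 50.9 to 60.1 CPM and 42.2 to 51.0 CPM in the SIN groups, above every DN rat. Tef had 85.3 to 115 CPM in normal and 122 to 176 CPM in DN rats. It had 146 to 212 CPM with SIN (20 mg/kg), which overlapped the DN rats, and 226 to 242 CPM with SIN (40 mg/kg), above every DN rat. Dbp was likewise above every DN rat with SIN (40 mg/kg), but overlapped the DN rats with SIN (20 mg/kg). Dbp, Tef and Hlf were not called for SIN over DN.

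Fmo2, a flavin monooxygenase that oxidises drugs without heme, fell in the DN group. It had 123 to 146 CPM in the normal rats, 52.4 to 93.9 CPM in the DN rats, 82.8 to 131 CPM with SIN (20 mg/kg), which overlapped the DN rats, and 109.5 to 174 CPM with SIN (40 mg/kg), where it did not overlap the DN rats but was not called.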
